A study of Rattus norvegicus with 12 samples.

Results

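The genes described are the motors that walk on microtubules: kinesins, cytoplasmic dynein, and the light chains and dynactin subunits that belong to them. Members were all probe sets whose platform annotation gives exactly 1 gene symbol, where that symbol starts with Kif followed by a digit or c, or with Klc, Dync, Dynl or Dctn followed by a digit or letter. The rule uses names and no measured value, and it found 59 probe sets, 1 for each of 59 genes, among 27342 on the array. By role they comprise 11 mitotic kinesins, 15 transport kinesins, 6 kinesins of the cilium or of other roles, 4 kinesin light chains, 5 chains of dynein 1, 3 chains of dynein 2, 9 dynein light chains and 6 dynactin subunits.

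Kinesins and dynein use ATP to step along microtubules, most kinesins toward the plus end and dynein toward the minus end. One class of kinesins builds the spindle, moves chromosomes and completes cytokinesis, and its messengers are made mainly in cells that pass through the cell cycle. The other class carries organelles, vesicles and messenger RNA in dividing and resting cells alike, and in cardiomyocytes microtubule motors are known to move mitochondria, channels and ribosomes between the myofibrils. Dynactin links dynein to its cargo, and dynein 2 works inside the primary cilium, where it returns transport particles from the tip to the base.

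The cells were monolayers of cardiomyocytes that had been enzymatically isolated from the hearts of Sprague-Dawley rats 2 days of age and grown on laminated coverslips for 3 days. The control group is 6 cultures kept for 3 days in 0.1% DMSO, the solvent, and the other group is 6 cultures kept for 3 days in di(2-ethylhexyl) phthalate (DEHP, a plasticizer of medical-grade PVC) at 50 µg/mL in the same 0.1% DMSO. All cells came from the same litter, so every p-value here measures the spread between cultures and arrays of 1 litter. Total RNA of each culture was put on 1 Affymetrix array, and the arrays' number (6 per group) limits the precision.

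The deposited values are ratios of each array to the probe set's own median over the 12 arrays. They show how a gene differs between arrays and hold no level, so the genes cannot be ranked by abundance, and the labelled cell type cannot be checked against the level of its markers. With 6 arrays per group, centring on the median puts the boundary between separated groups at 0 in log2, so its position carries no information. All values below are log2 of these ratios or differences between them, and a log2 fold is DEHP over control ± SE, n = 6 arrays per group. In a bulk culture, fewer cells of a type and less RNA per cell cannot be told apart. Control replicate 5 stood apart, with an SD of its log2 ratios over all probe sets of 0.37, against 0.27 in DEHP replicate 6 and 0.15 to 0.19 in the other 10 arrays. Over all probe sets, its deviations from its group mean correlated at 0.77 with those of DEHP replicate 5, the highest value of the 6 numbers. Leaving out control replicate 5 alone keeps DEHP replicate 5 in. Control replicate 5 was the highest or lowest of the 12 arrays for 57.6% of the members, against 58.0% of all probe sets. DEHP replicate 6 was so for 47.5% of the members, against 29.1% of all probe sets. Where leaving out control replicate 5 changed a call, both values are given. No log2 fold of the 23 members that passed the test described below moved by over 1.5 times or turned sign without that array, but those of 25 of the other 36 did, 8 of them turning sign. Without it these 25 were at most 0.13 in size, and those named are given both ways.

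Promoters of the mitotic kinesins are shown first because these genes moved together in the arrays, and because many cell cycle genes are known to carry a CCAAT box, bound by NF-Y, and the cell cycle genes homology region (CHR, TTTGAA). The RefSeq promoter table of the rat assembly GRCr8 holds 250 bases before to 50 bases after each start, and 47 of the 59 members matched it. Each window below covers 130 bases before to 20 bases after the start, printed 5′ to 3′ in the direction of transcription. Capitals mark either motif in that direction or as its reverse complement, which reads ATTGG for the CCAAT box and TTCAAA for CHR. The first 6 are the mitotic kinesins lower under DEHP that hold either motif. Kif2c and Kif18b, which fell and hold neither, are not printed. The last 2, Kif16b and Dync2li1, are the transport kinesin and the dynein 2 chain with the largest rises. Kif1b, which rose and holds CCAAT, is not printed either.
Kif20a, chr18:26504292-26504441, plus strand: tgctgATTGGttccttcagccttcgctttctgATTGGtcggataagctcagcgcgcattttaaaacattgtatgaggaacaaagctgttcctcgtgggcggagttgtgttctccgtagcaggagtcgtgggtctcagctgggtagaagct
Kif4a, chrX:69761753-69761902, plus strand: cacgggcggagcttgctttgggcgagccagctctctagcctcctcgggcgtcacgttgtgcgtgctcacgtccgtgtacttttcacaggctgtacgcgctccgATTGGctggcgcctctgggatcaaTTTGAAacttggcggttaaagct
Kif23, chr8:71320565-71320714, minus strand: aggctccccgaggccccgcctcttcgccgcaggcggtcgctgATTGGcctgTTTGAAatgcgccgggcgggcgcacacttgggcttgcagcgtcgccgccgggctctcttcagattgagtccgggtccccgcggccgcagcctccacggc
Kif22, chr1:191080859-191081008, minus strand: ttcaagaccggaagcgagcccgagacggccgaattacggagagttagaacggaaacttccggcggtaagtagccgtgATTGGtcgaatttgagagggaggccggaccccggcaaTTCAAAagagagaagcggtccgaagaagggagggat
Kif11, chr1:244536737-244536886, plus strand: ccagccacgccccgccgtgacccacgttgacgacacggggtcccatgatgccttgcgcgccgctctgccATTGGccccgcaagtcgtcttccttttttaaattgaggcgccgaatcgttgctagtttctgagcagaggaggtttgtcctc
Kif20b, chr1:241840886-241841035, plus strand: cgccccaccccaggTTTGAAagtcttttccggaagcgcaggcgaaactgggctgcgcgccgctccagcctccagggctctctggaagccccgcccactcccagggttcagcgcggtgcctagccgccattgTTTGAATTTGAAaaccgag
Kif16b, chr3:150707566-150707715, minus strand: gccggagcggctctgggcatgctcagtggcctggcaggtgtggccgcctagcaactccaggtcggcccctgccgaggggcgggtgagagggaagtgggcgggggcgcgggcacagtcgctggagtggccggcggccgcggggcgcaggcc
Dync2li1, chr6:15778147-15778296, minus strand: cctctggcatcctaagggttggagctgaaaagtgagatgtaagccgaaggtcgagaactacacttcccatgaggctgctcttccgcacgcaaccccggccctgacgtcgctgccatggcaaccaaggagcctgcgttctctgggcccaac

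In the full 300-base windows, searched on both strands, CCAAT was in 7 of 10 mitotic kinesins with a promoter in the table (70.0%), against 39.6% of all 27457 genes. TTTGAA was in 6 of the 10 (60.0%), against 19.4% of all genes. Both occurred in 5 of the 10 (50.0%, Kif4a, Kif20b, Kif22, Kif23 and Kifc1), against 7.96% of all genes. The letters of the motifs allow an overlap of a single end base, and in these 5 promoters no CCAAT match overlapped a TTTGAA match. In Kif23 the CCAAT box starts 88 bases before the start and TTTGAA 79 bases before it. In Kif4a they start 27 and 3 bases before it, and in Kif22 53 and 16 bases before it. Kif20b holds 3 copies of TTTGAA in the printed window, and its only CCAAT match lies 155 bases before the start, outside that window. Among the 37 other members with a promoter, CCAAT was in 15 (40.5%), TTTGAA in 3 (8.11%, Dctn1, Dynlt5 and Kif26b) and both in 1 (Kif26b, 2.7%). None of the 10 transport kinesins with a promoter in the table held TTTGAA, and 3 held CCAAT (30.0%). Of the 9 members that rose and had a promoter, 2 held CCAAT (22.2%, Kif1b and Dynlt2b) and 0 held TTTGAA. The printed windows are a selection, so the absence of motifs in Kif16b and Dync2li1 does not stand for all genes that rose. The mitotic kinesins Kif2c and Kif18b also fell and have neither sequence in this window, and Kif20a and Kif11 have CCAAT alone. A match is a description of letters in a short window.

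The first question was how many motor genes differed between DEHP and control cultures and in which roles. Of the 59 members, 23 passed the test (limma, adjusted p under 0.05), which is 39.0%, against 18.3% of all 27342 probe sets. Among probe sets with 1 gene symbol the share was 24.4%. Higher under DEHP were 10 of the 59 members, against a background of 10.5% of all probe sets, and lower were 13 of 59, against 7.82%. Among the 15097 probe sets with 1 gene symbol, which the members are drawn from, 2158 were higher and 1528 lower. The values of the 6 DEHP arrays did not overlap those of the 6 control arrays for 15 members (25.4%). That share was 12.2% of all probe sets and 16.8% of those with 1 gene symbol. The lower calls were concentrated by count in the mitotic kinesins (8 of 11), and without them 10 of the other 48 members rose and 5 fell. Of these 48, 31.2% passed, against 24.4% of probe sets with 1 gene symbol. Their groups did not overlap for 16.7%, near the 16.8% of probe sets with 1 gene symbol. The median log2 fold was −0.67 over the mitotic kinesins, −0.01 over the transport kinesins and 0.02 over the 23 genes of dynein and dynactin, beside −0.02 over all probe sets.

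**Figure D1:**
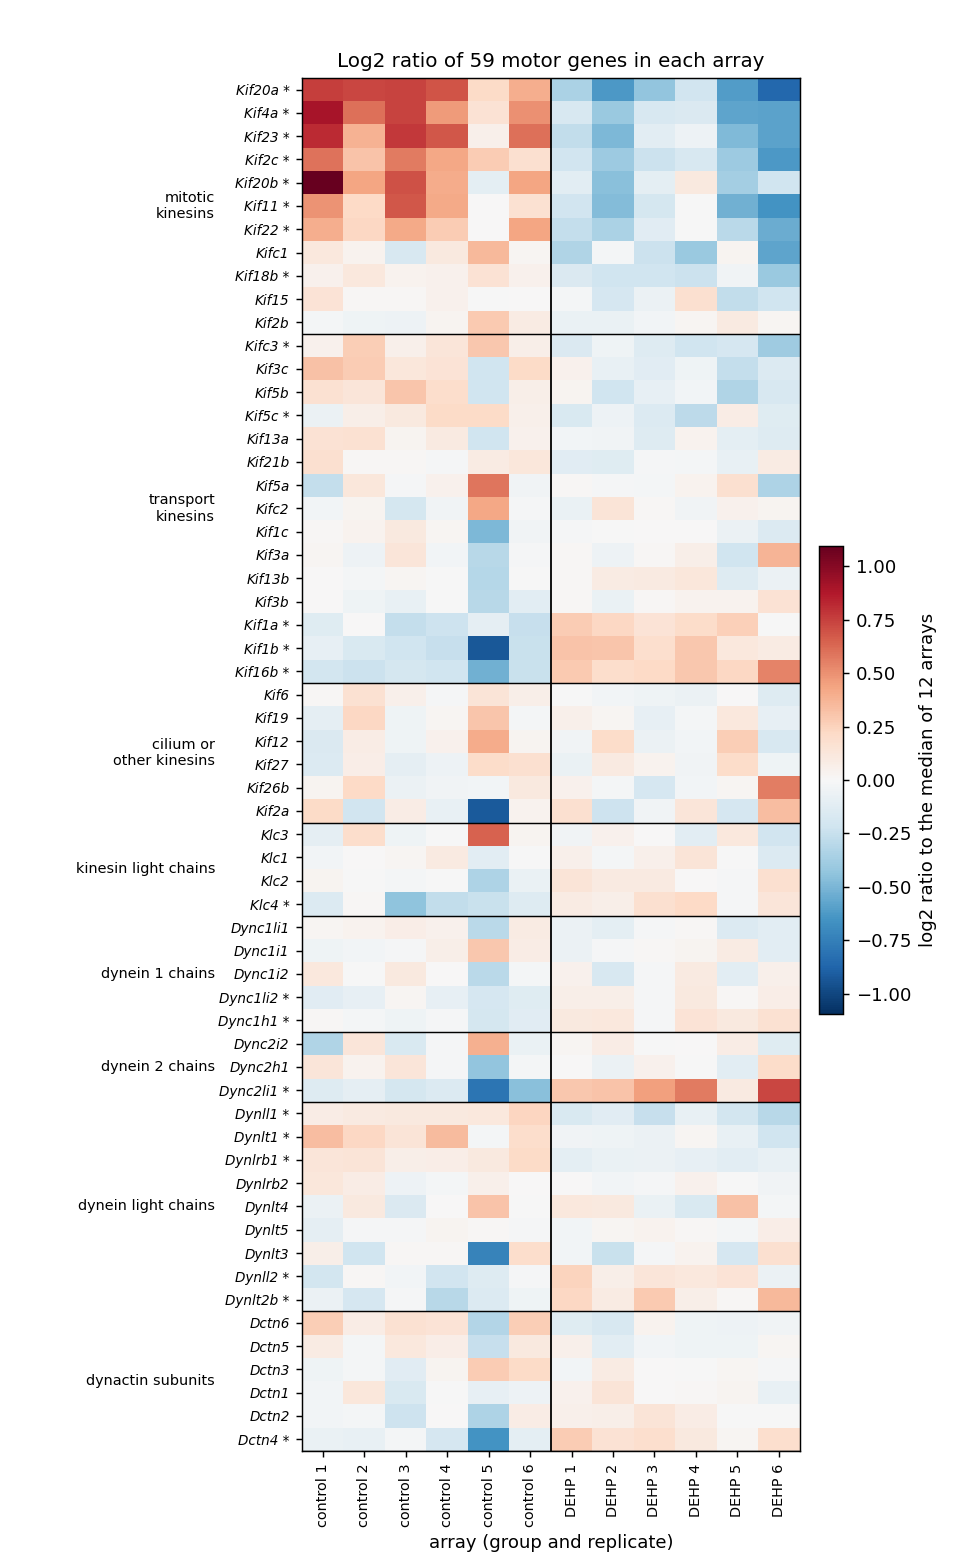
Each line is 1 of the 59 motor genes, grouped by role, and each column is 1 array; colour gives the log2 ratio to the median of the 12 arrays and an asterisk marks genes that passed the limma test. The upper 7 mitotic kinesins are red in most control arrays and blue in most DEHP arrays, while the transport and dynein blocks hold genes of both directions and many near 0, and control replicate 5 differs from the other controls in many genes.

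Among the mitotic kinesins, Kif20a fell furthest, to a level 2.15-fold lower. Kif20a (MKLP2) carries the chromosomal passenger complex with Aurora B to the central spindle for cytokinesis. The lowest, median and highest log2 ratios of Kif20a were 0.21, 0.71 and 0.75 in control and −0.86, −0.53 and −0.21 under DEHP. Every control array was above every DEHP array, and DEHP replicate 6 was the lowest of the 12. The log2 fold was −1.10 ± 0.12, adjusted p = 2.88e-05 (limma). Kif4a, a chromosome-binding kinesin that limits microtubule length at the spindle midzone together with Prc1, came next. In control arrays Kif4a had log2 ratios of 0.16 to 0.91 (median 0.55), and in DEHP arrays −0.58 to −0.16 (median −0.29). Control and DEHP arrays did not overlap, control replicate 5 was the lowest control, and the log2 fold was −0.91 ± 0.12, adjusted p = 0.000157 (limma).

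Kif23 (MKLP1) forms the centralspindlin complex with Racgap1 and bundles microtubules at the midbody. Kif23 lay between 0.06 and 0.82 in the control arrays (median 0.64) and between −0.58 and −0.06 in the DEHP arrays (median −0.38) on the log2 ratio scale. No values overlapped, but control replicate 5 stood only just above the highest DEHP array. Its log2 fold was −0.88 ± 0.13, adjusted p = 0.000424 (limma), and −0.98 without control replicate 5. Kif20b, another kinesin needed for late cytokinesis, had the widest range among the controls of the 8 mitotic kinesins that fell. In control arrays Kif20b had log2 ratios of −0.11 to 1.09 (median 0.43), and in DEHP arrays −0.46 to 0.10 (median −0.17). Control replicate 5 lay within the range of the DEHP arrays, and DEHP replicate 4 was the highest DEHP array. Its log2 fold was −0.69 ± 0.16, adjusted p = 0.00971 (limma), and without control replicate 5 it was −0.81, adjusted p = 0.000784. The 4 kinesins of the midzone and cytokinesis were therefore 1.61-fold to 2.15-fold lower under DEHP.

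Kif2c (MCAK) shortens microtubules at kinetochores and corrects faulty attachments. Under DEHP the log2 ratio of Kif2c was −0.63 to −0.17 (median −0.32), and in control it was 0.17 to 0.60 (median 0.36). All controls were above all DEHP arrays, of which replicate 6 was lowest, and the log2 fold was −0.73 ± 0.09, adjusted p = 8.96e-05 (limma), a level 1.66-fold lower. Kif11 (Eg5) slides antiparallel microtubules apart to set up a spindle with a pair of poles. Kif11 lay between 0.0021 and 0.68 in the control arrays (median 0.32) and between −0.66 and −0.0021 in the DEHP arrays (median −0.34) on the log2 ratio scale. The groups touched near 0, where control replicate 5 was the lowest control and DEHP replicate 4 the highest DEHP array. Kif11 fell with a log2 fold of −0.67 ± 0.13, adjusted p = 0.00256 (limma).

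Kif22 (Kid) pushes chromosome arms away from the spindle poles. The lowest, median and highest log2 ratios of Kif22 were 0.0032, 0.34 and 0.43 in control and −0.54, −0.28 and −0.0032 under DEHP. As for Kif11, the lowest control and the highest DEHP array nearly met, and the log2 fold was −0.55 ± 0.09, adjusted p = 0.000941 (limma). Kif18b works on the astral microtubules that reach the cell cortex. Control values of Kif18b were 0.04 at the lowest, 0.05 at the median and 0.16 at the highest, and DEHP values −0.40, −0.22 and −0.04, all log2 ratios. The controls lay close together above all DEHP arrays, and the fall was the smallest of the 8, at −0.29 ± 0.05, adjusted p = 0.00189 (limma).

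The other 3 measured mitotic kinesins did not pass. Kifc1, a minus-end motor that focuses spindle poles, had a log2 fold of −0.33 ± 0.11, adjusted p = 0.0516 (limma), with a 95% interval of −0.57 to −0.10. Its control replicate 3 (−0.18) lay inside the DEHP range and its DEHP replicate 6 was lowest. Without control replicate 3, DEHP replicate 2 or DEHP replicate 5 it passed, with adjusted p of 0.0306, 0.0345 and 0.0217. With all arrays Kifc1 also passed under quantile normalization (adjusted p = 0.0228), median centring (0.0494), array weights (0.00494), single-symbol probe sets (0.0363) and gene means (0.0357), all from limma. Kif15 can stand in for Kif11 in spindle assembly, and its log2 fold was −0.13 ± 0.07, adjusted p = 0.226 (limma), with a 95% interval of −0.28 to 0.01. Kif15 passed without DEHP replicate 4 (adjusted p = 0.0292). Kif2b had a log2 fold of −0.06 ± 0.06, adjusted p = 0.579, and −0.0075 without control replicate 5.

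The same arrays were high or low for most of these genes. Among the 8 mitotic kinesins that fell, control replicate 5 was the lowest of the 6 controls for 6 and control replicate 1 the highest for 5. DEHP replicate 4 was the highest of the DEHP arrays for 7 of the 8 and DEHP replicate 6 the lowest for 7. Over all probe sets, control replicate 5 was the lowest control for 33.4%, control replicate 1 the highest for 17.3%, DEHP replicate 4 the highest DEHP array for 12.6% and DEHP replicate 6 the lowest for 25.4%. General cell cycle genes shared part of this order: of 11 proliferation markers measured, control replicate 5 was the lowest control for 8, DEHP replicate 4 the highest DEHP array for 8 and DEHP replicate 6 the lowest for 9. The highest control differed, being control replicate 3 for 6 of these markers and control replicate 1 for 4. These genes share arrays, so the orders are not independent of each other.

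Genes that work with the mitotic kinesins were taken from a list of 28 spindle and cytokinesis partners, of which 23 were measured. Of these 19 fell, 0 rose and 4 did not pass (limma), with a median log2 fold of −0.54 beside −0.02 over all probe sets. The share that passed was 82.6%, against 18.3% of all probe sets and 24.4% of those with 1 gene symbol. Prc1, which bundles midzone microtubules and recruits Kif4a, had a log2 fold of −0.99 ± 0.09 (adjusted p = 4.72e-06, limma). Cdca8, the borealin subunit of the passenger complex that Kif20a moves, had −0.42 ± 0.04. Spc25, a kinetochore protein of the Ndc80 complex, had −0.99 ± 0.11, and the mitotic kinase Plk1 had −0.73 ± 0.10. Racgap1, the partner of Kif23, was chosen after its values were seen and had −0.79 ± 0.11 (adjusted p = 0.000159, limma). All 5 are among the genes that fell.

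Markers of proliferation and of other cells moved beside the mitotic kinesins, and their part in these results was not tested. Of the 11 proliferation markers measured of 12, 8 fell and 0 rose, and their mean log2 ratio ran from 0.09 to 0.47 in control and from −0.64 to −0.13 under DEHP. All 8 smooth muscle and myofibroblast markers measured of 10 fell, with means of 0.64 to 0.81 in control and −1.22 to −0.62 under DEHP. Of 11 fibroblast markers 4 rose and 6 fell, and of 12 cardiomyocyte markers 2 rose and 4 fell. Of 7 endothelial markers 3 rose and 1 fell, of 10 leukocyte and macrophage markers 2 rose and 2 fell, and of 12 Schwann cell and neuronal markers 0 rose and 3 fell. Over all probe sets 10.5% were higher and 7.82% lower (limma). Whether any defining marker was absent cannot be read from ratios that hold no level.

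The contrast between motor classes was read from the mean log2 ratio of each class within each array. The mean of the 11 mitotic kinesins was 0.49, 0.27, 0.40, 0.33, 0.13 and 0.26 in control replicates 1 to 6 and −0.20, −0.34, −0.18, −0.09, −0.31 and −0.48 in DEHP replicates 1 to 6. Every control array was above every DEHP array, with means of 0.31 ± 0.12 and −0.26 ± 0.14 (SD, n = 6 each). For the 15 transport kinesins the means were −0.02 ± 0.06 and 0.0049 ± 0.02 (SD, n = 6 each), and for the 23 genes of dynein and dynactin −0.02 ± 0.06 and 0.03 ± 0.02. In both of these classes the groups overlapped, and control replicate 5 was lowest, at −0.13 and −0.14.

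Subtracting the transport kinesins from the mitotic kinesins within each array gave 0.24 to 0.48 in control and −0.46 to −0.12 under DEHP, a difference of −0.60 between the group means. Against dynein and dynactin the same subtraction gave 0.23 to 0.48 and −0.51 to −0.13, a difference of −0.62. Without control replicate 5 the differences were −0.61 and −0.63, and without control replicate 5 and DEHP replicate 6 together −0.58 and −0.59. No p is given for these means, since the classes were set with earlier results known. The transport kinesins and dynein with dynactin each held genes that rose and genes that fell.

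**Figure D2:**
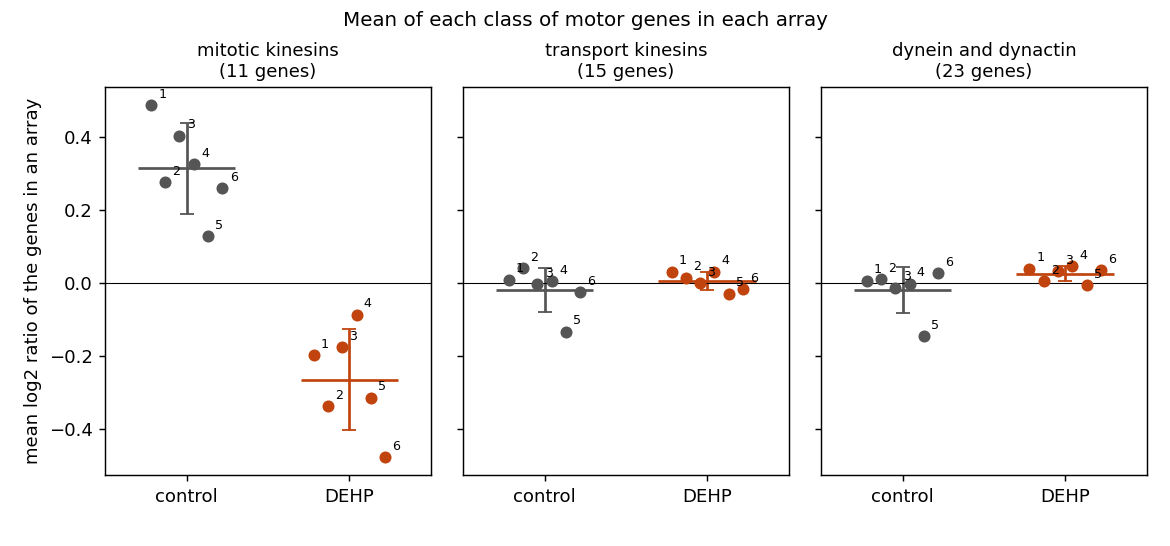
Each point is the mean log2 ratio of 1 class of motor genes in 1 array (numbers are replicates), with the group mean as a horizontal line and 1 SD as the bar, n = 6 arrays per group. The mitotic kinesins separate control (0.13 to 0.49) from DEHP (−0.48 to −0.09), while transport kinesins and dynein with dynactin overlap near 0 with control replicate 5 lowest.

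Among the 15 transport kinesins 3 rose, 2 fell and 10 did not pass (limma). The share that passed was 33.3%, against 18.3% of all probe sets and 24.4% of those with 1 gene symbol. Kif16b, which carries early endosomes toward the plus end through a domain that binds their lipid, rose most. The log2 ratio of Kif16b ran from −0.52 to −0.19 in the control arrays (median −0.23) and from 0.19 to 0.54 in the DEHP arrays (median 0.26). All DEHP arrays were above all control arrays, with DEHP replicate 6 highest and control replicate 5 lowest. The log2 fold was 0.56 ± 0.07, adjusted p = 9.17e-05 (limma), a level 1.47-fold higher, and 0.51 without control replicate 5. Kif1b, whose forms carry mitochondria or synaptic vesicle precursors, also rose. Kif1b lay between −0.93 and −0.09 in the control arrays (median −0.23) and between 0.09 and 0.31 in the DEHP arrays (median 0.24) on the log2 ratio scale. The groups did not overlap, and the lowest value, of control replicate 5, was far from the other controls. With that array the log2 fold was 0.53 ± 0.12, adjusted p = 0.00698, and without it 0.41, adjusted p = 0.000114 (limma).

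Kif1a, the relative of Kif1b known from axonal transport of vesicle precursors, was the third transport kinesin to rise. Under DEHP the log2 ratio of Kif1a was −0.0018 to 0.28 (median 0.21), and in control it was −0.26 to 0.0018 (median −0.18). The groups met at 0, where the highest control and the lowest DEHP array lay. The log2 fold was 0.35 ± 0.06, adjusted p = 0.000972 (limma).

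Kifc3, a minus-end motor of epithelial junctions and endosomes, fell. In control arrays Kifc3 had log2 ratios of 0.05 to 0.30 (median 0.10), and in DEHP arrays −0.39 to −0.05 (median −0.17). The groups did not overlap, and the log2 fold was −0.33 ± 0.06, adjusted p = 0.00218 (limma).

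The conventional kinesin-1 is a pair of heavy chains, Kif5a, Kif5b or Kif5c, with a pair of light chains, and Kif5b is its widely expressed form. Kif5c lay between −0.07 and 0.21 in the control arrays (median 0.09) and between −0.29 and 0.08 in the DEHP arrays (median −0.14) on the log2 ratio scale. The groups overlapped, and Kif5c fell with a log2 fold of −0.22 ± 0.06, adjusted p = 0.033 (limma). That call was lost, with adjusted p from 0.0528 to 0.0763, when control replicate 2, 3, 4 or 5 or DEHP replicate 1, 3, 4 or 6 was left out. Without control replicate 5 the log2 fold of Kif5c was −0.19, adjusted p = 0.0543 (limma). Control values of Kif5b were −0.22 at the lowest, 0.15 at the median and 0.31 at the highest, and DEHP values −0.33, −0.14 and 0.03, all log2 ratios. Control replicate 5 (−0.22) was the only control below the DEHP median, and Kif5b did not pass, at −0.25 ± 0.09, adjusted p = 0.0663 (limma), with a 95% interval of −0.43 to −0.06. Without control replicate 5 its log2 fold was −0.31, adjusted p = 0.00434. Kif5a had −0.10 ± 0.12, adjusted p = 0.636, with a 95% interval of −0.37 to 0.17. Control replicate 5 was its highest array, and without it the log2 fold of Kif5a was 0.0025.

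Kinesin light chains bind the cargo of kinesin-1, and 1 of the 4 passed and rose. That share is close to the background, since 24.4% of probe sets with 1 gene symbol and 18.3% of all probe sets passed. In control arrays Klc4 had log2 ratios of −0.44 to 0.01 (median −0.20), and in DEHP arrays −0.01 to 0.22 (median 0.11). The groups overlapped only at their edges, and the log2 fold of Klc4 was 0.31 ± 0.07, adjusted p = 0.00514 (limma). Klc1 and Klc2, the forms most studied in cargo binding, had log2 folds of 0.02 ± 0.05, adjusted p = 0.841 and 0.15 ± 0.06, adjusted p = 0.128. Klc3 had −0.15 ± 0.11, adjusted p = 0.427, with control replicate 5 the highest array. Without that array Klc1, Klc2 and Klc3 had −0.0038, 0.0975 and −0.0454, and none of the 3 passed.

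Kinesin-2 is made of Kif3a with Kif3b or Kif3c, joined by Kifap3, and drives outward transport in cilia and organelle transport elsewhere. None of the 3 motor chains passed. Kif3a had a log2 fold of 0.07 ± 0.09, adjusted p = 0.655, Kif3b 0.12 ± 0.06, adjusted p = 0.164 and Kif3c −0.25 ± 0.08, adjusted p = 0.0585 (limma). Kif3c had control replicate 5 (−0.22) as its lowest control, and without that array it was −0.32, adjusted p = 0.00119. Kif3a and Kif3b were 0.02 and 0.08 without it. Kifap3 was named after its values were seen, at 0.33 ± 0.14, adjusted p = 0.132 (limma). Control replicate 5 was its lowest array (−0.94), and its log2 fold is given with that array only.

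The other transport kinesins did not pass. Their log2 folds were 0.02 ± 0.09 for Kif1c, −0.12 ± 0.06 for Kif13a, 0.07 ± 0.07 for Kif13b, −0.11 ± 0.05 for Kif21b and −0.0092 ± 0.08 for Kifc2. Kif13a was −0.17 without control replicate 5 (adjusted p = 0.0142, limma), Kif1c −0.06, Kif13b 0.02 and Kifc2 0.07. The 6 kinesins of the cilium or of other roles also did not pass, with log2 folds of −0.12 (Kif6) to 0.18 (Kif2a), and 1 of them had an unadjusted p under 0.05 (limma), Kif6, with adjusted p = 0.0661. Kif2a, a microtubule depolymerase of neurons and spindle poles, had control replicate 5 at −0.92 and a log2 fold of 0.18 ± 0.17 with it and 0.03 without it. Kif26b had a log2 fold of 0.03 ± 0.10 with that array and 0.015 without it.

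**Figure D3:**
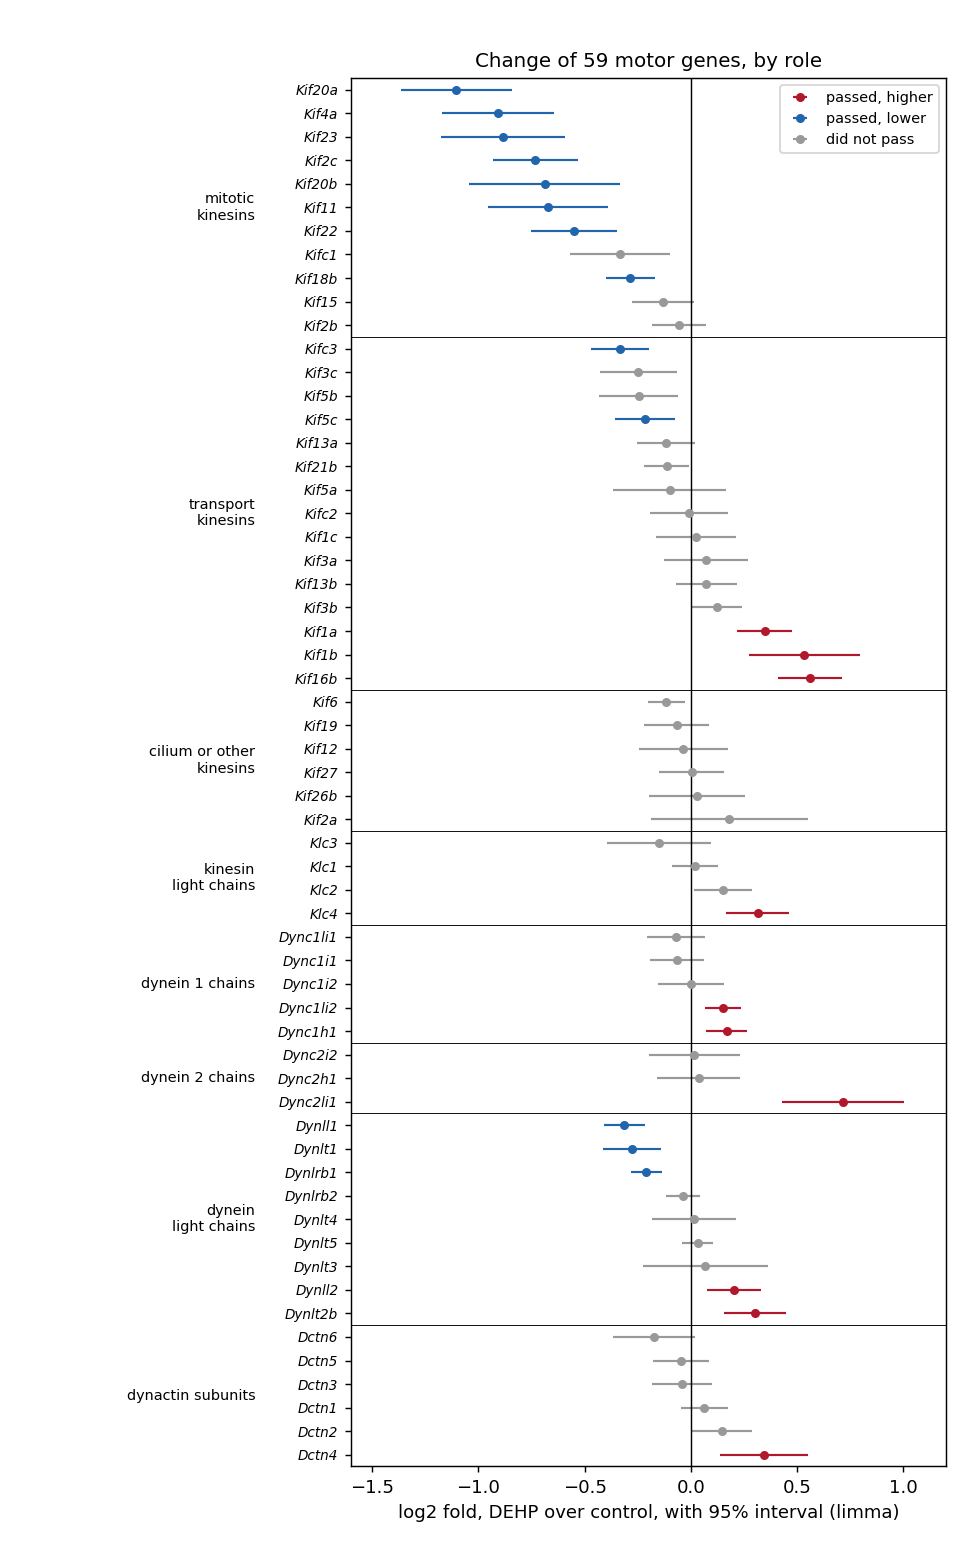
Points are log2 folds (DEHP over control) of the 59 motor genes by role and lines are 95% intervals from limma, n = 6 arrays per group; red passed and was higher, blue passed and was lower, grey did not pass. The listed mitotic kinesins lie left of 0, at −1.10 to −0.06, and the other roles lie on both sides, from −0.33 (Kifc3) to 0.72 (Dync2li1). Kif2a (0.18), which also acts at spindle poles, is not on the mitotic list and is drawn with the other roles.

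Dynein 1, the main minus-end motor of the cytoplasm, has a single heavy chain. Under DEHP the log2 ratio of Dync1h1 was −0.02 to 0.17 (median 0.11), and in control it was −0.19 to 0.01 (median −0.03). The groups overlapped slightly, since DEHP replicate 3 lay among the controls. Dync1h1 rose by 1.12-fold, with a log2 fold of 0.17 ± 0.04, adjusted p = 0.0178 (limma). Dync1li2, a light intermediate chain that binds cargo adaptors, rose by a similar small amount. Dync1li2 lay between −0.19 and 0.02 in the control arrays (median −0.11) and between −0.01 and 0.11 in the DEHP arrays (median 0.06) on the log2 ratio scale. The groups overlapped at the edge near 0, and the log2 fold was 0.15 ± 0.04, adjusted p = 0.0152 (limma). The other chains did not pass: Dync1li1 had −0.07 ± 0.06, adjusted p = 0.52, Dync1i1 −0.07 ± 0.06, adjusted p = 0.505 and Dync1i2 −0.0011 ± 0.07. Without control replicate 5, Dync1li1 was −0.13, adjusted p = 0.0264, Dync1i1 −0.02 and Dync1i2 −0.06.

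The largest rise of any motor gene was in dynein 2, the motor of return transport in cilia. Dync2li1 is its light intermediate chain. In control arrays Dync2li1 had log2 ratios of −0.80 to −0.10 (median −0.17), and in DEHP arrays 0.10 to 0.73 (median 0.38). No DEHP array was as low as any control, control replicate 5 was lowest and DEHP replicate 6 highest. The log2 fold was 0.72 ± 0.13, adjusted p = 0.00173 (limma), a level 1.64-fold higher, and 0.62 without control replicate 5. Dynlt2b, a light chain found in dynein 2, rose too. Under DEHP the log2 ratio of Dynlt2b was 0.02 to 0.35 (median 0.16), and in control it was −0.31 to −0.02 (median −0.11). The groups did not overlap, and the log2 fold was 0.30 ± 0.07, adjusted p = 0.0067 (limma). The heavy chain Dync2h1 and the intermediate chain Dync2i2 did not pass, with log2 folds of 0.04 ± 0.09, adjusted p = 0.822 and 0.02 ± 0.10, adjusted p = 0.933. These were −0.04 and 0.0951 without control replicate 5.

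Light chains shared by dynein complexes went both ways. Dynll1 (LC8) is a small dimer that also serves many proteins outside dynein. Dynll1 lay between 0.08 and 0.23 in the control arrays (median 0.11) and between −0.30 and −0.08 in the DEHP arrays (median −0.18) on the log2 ratio scale. The groups did not overlap, control replicate 6 stood above the other controls, and the log2 fold of Dynll1 was −0.31 ± 0.04, adjusted p = 0.000219 (limma). The lowest, median and highest log2 ratios of Dynll2 were −0.21, −0.08 and 0.01 in control and −0.07, 0.13 and 0.25 under DEHP. This near-identical form rose, with overlap between the groups and a log2 fold of 0.20 ± 0.06, adjusted p = 0.0272 (limma). The call for Dynll2 was lost, with adjusted p from 0.0519 to 0.0651, when control replicate 1 or 4 or DEHP replicate 1, 3, 4 or 5 was left out.

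Dynlrb1 (roadblock) binds the intermediate chains. Control values of Dynlrb1 were 0.06 at the lowest, 0.12 at the median and 0.21 at the highest, and DEHP values −0.12, −0.09 and −0.06, all log2 ratios. The groups lay narrow and apart, and Dynlrb1 fell with a log2 fold of −0.21 ± 0.03, adjusted p = 0.000554 (limma). Dynlt1, a Tctex-type light chain, fell as well. Dynlt1 lay between −0.02 and 0.35 in the control arrays (median 0.21) and between −0.21 and 0.02 in the DEHP arrays (median −0.06) on the log2 ratio scale. Only control replicate 5 lay among the DEHP arrays, and the log2 fold was −0.28 ± 0.06, adjusted p = 0.00695 (limma). Dynlrb2, Dynlt3, Dynlt4 and Dynlt5 did not pass, with log2 folds of −0.04 to 0.07. Dynlt3 turned from 0.07 to −0.06 and Dynlt4 moved from 0.01 to 0.07 when control replicate 5 was left out.

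Dynactin gave 1 call among 6 subunits (16.7%, against 18.3% of all probe sets and 24.4% of those with 1 gene symbol). Dctn4 (p62) sits at the pointed end of the dynactin filament. The lowest, median and highest log2 ratios of Dctn4 were −0.65, −0.10 and −0.02 in control and 0.02, 0.17 and 0.28 under DEHP. All DEHP arrays were above all controls, and control replicate 5 was far below the rest. The log2 fold was 0.34 ± 0.09, adjusted p = 0.0223, and 0.25 without control replicate 5, adjusted p = 0.00194. The call was lost without DEHP replicate 1 (adjusted p = 0.0546, limma). Dctn1, the large subunit p150Glued that touches the microtubule, had 0.06 ± 0.05, adjusted p = 0.453, and Dctn2 (dynamitin) had 0.15 ± 0.07, adjusted p = 0.174. Dctn6 had −0.17 ± 0.09, adjusted p = 0.236, and −0.26 without control replicate 5, adjusted p = 0.00194. Dctn3 and Dctn5 had −0.04 and −0.05. Dctn2, Dctn3 and Dctn5 had 0.095, 0.003 and −0.0996 without control replicate 5.

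Adaptors that choose the cargo of these motors were taken from a list of 34 adaptors and regulators, of which 32 were measured. Of these 9 rose, 2 fell and 21 did not pass (limma), with a median log2 fold of 0.10 beside −0.02 over all probe sets. The share that passed was 34.4%, against 18.3% of all probe sets and 24.4% of those with 1 gene symbol. Fyco1, which couples autophagosomes and late endosomes to kinesin, had 0.64 ± 0.06 (adjusted p = 4.55e-06, limma). Rhot2 (Miro2), an anchor for motors on mitochondria, had 0.42 ± 0.05, and Trak1, the adaptor between Miro and kinesin-1, had 0.47 ± 0.06 (adjusted p = 0.000191, limma). These 3 rose, and Rhot1 (Miro1), named after its values were seen, also rose, at 0.43 ± 0.07 (adjusted p = 0.0005, limma). Ift88, a protein of the ciliary transport particle, was likewise chosen after its values were seen and rose by 0.38 ± 0.08 (adjusted p = 0.00283, limma). On the same list Ift20 and Ift57 of that particle and Trak2, also named after their values were seen, did not pass. Their log2 folds were 0.08 ± 0.06, 0.08 ± 0.16 and 0.13 ± 0.08, with adjusted p of 0.428, 0.774 and 0.338 (limma). Control replicate 5 was the lowest array for each of them, at −0.18, −0.82 and −0.40. All genes of this list are given with that array only. Nde1, a dynein regulator also needed in mitosis, fell by 0.32 ± 0.04 on the log2 scale (adjusted p = 0.000223, limma).

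Close relatives within a family did not always move alike. The difference between 2 relatives within each array was compared between groups for 17 pairs, by an exact two-sided permutation test over the 924 splits of 12 arrays, with p adjusted over the 17 pairs. The smallest p this design can give is 0.00216. Pairs and test were chosen after the data were seen. Of the 17 pairs 10 passed after adjustment, 5 of them at the smallest possible p (adjusted p = 0.00736, exact permutation). These 5 were Dynll1 with Dynll2, Dynlrb1 with Dynlrb2, Kif1b with Kif1c, Kif2a with Kif2c and Kif3b with Kif3c.

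Dynll1 minus Dynll2 was 0.22 ± 0.09 in control and −0.30 ± 0.10 under DEHP (SD, n = 6 each), so the 2 forms of LC8 shifted against each other by −0.52 in log2. Kif1b minus Kif1c went from −0.26 ± 0.12 to 0.25 ± 0.06, a shift of 0.51. The depolymerases Kif2a and Kif2c, of which only Kif2c is on the mitotic list, had a difference of −0.54 ± 0.35 in control and 0.37 ± 0.30 under DEHP. Kif3b minus Kif3c moved from −0.23 ± 0.10 to 0.14 ± 0.14, although neither passed alone. The shift of Dynlrb1 minus Dynlrb2 was smaller, from 0.09 ± 0.07 to −0.08 ± 0.05. In these 5 pairs the differences of the 6 control arrays did not overlap those of the 6 DEHP arrays. The smallest exact p already requires this, so it is the same result and no further evidence.

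The 5 further pairs past the threshold had shifts of −0.19 (Kif13a minus Kif13b), −0.30 (Klc1 minus Klc4), −0.22 (Dync1li1 minus Dync1li2), −0.42 (Kif20a minus Kif20b) and −0.35 (Dynlt1 minus Dynlt3), with adjusted p of 0.0105 to 0.0331 (exact permutation). Differences that did not pass included Kif1a minus Kif1b (−0.19, exact permutation p = 0.177), Kif5b minus Kif5c (−0.03, p = 0.838) and Kif5a minus Kif5b (0.15, p = 0.498). Without control replicate 5, Kif5a minus Kif5b was 0.31 (unadjusted exact permutation p = 0.0281) and Dync2h1 minus Dync1h1 was −0.19 (p = 0.0195). Klc1 minus Klc2 was −0.18 without DEHP replicate 4 (unadjusted exact permutation p = 0.0173). With all arrays these last 2 pairs had exact permutation p of 0.121 and 0.0974. Genes this close can share sequence, and whether a probe set also detects its relative was not tested.

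**Figure D4:**
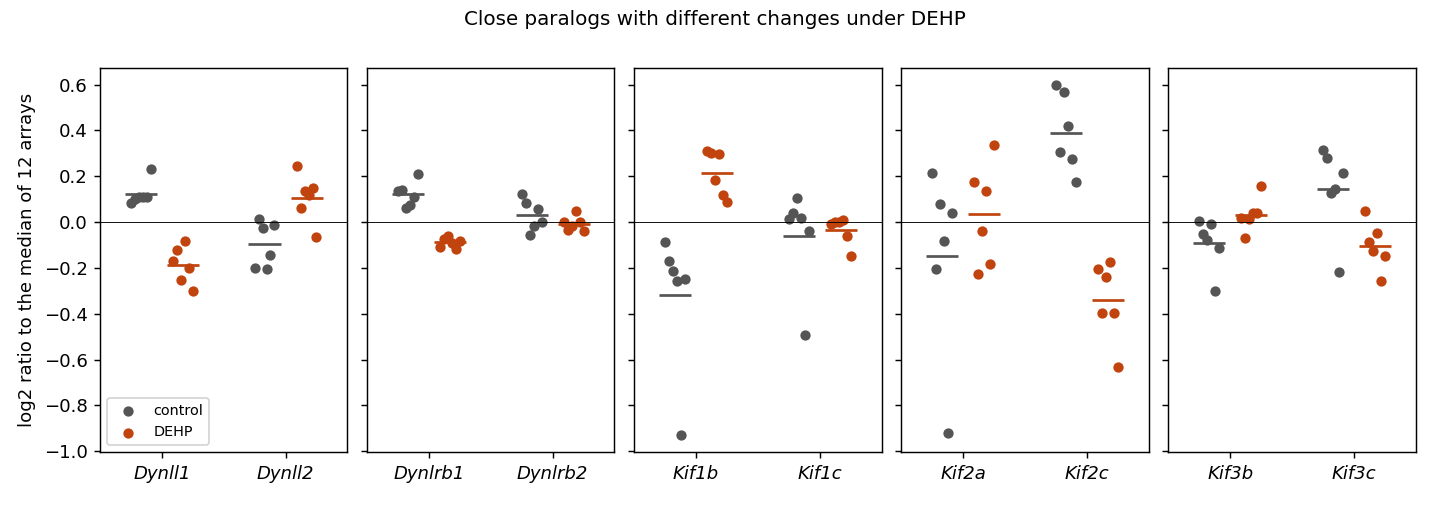
Points are log2 ratios of single arrays (grey control, orange DEHP, n = 6 each) and lines are group means, for the 5 pairs of close relatives whose difference reached the smallest exact p. In the first panel Dynll1 is lower and Dynll2 higher under DEHP; in the third Kif1b is higher while Kif1c stays near 0, and the point at −0.93 is control replicate 5.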

How the data were processed

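RNA from 12 cultures was measured on 12 Affymetrix arrays, 6 control and 6 DEHP. Per the submitters' processing notes the authors used RMA (background correction, normalization and probe summarization), in a version that is not given in the sources used here. The values deposited are ratios on a linear scale, and their log2 has a median over the 12 arrays within 5e-07 of 0 for every probe set. Centring in this way leaves group differences unchanged but removes the level, so brightness and depth are unknown. Genes were named through the platform annotation.

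The log2 of the deposited ratios was fitted for all 27342 probe sets with limma 3.58.1 in R 4.3.3 (lmFit and eBayes, two-sided, Benjamini-Hochberg over all probe sets, adjusted p under 0.05, 95% intervals). The test was also run on simulated data with independent normal noise of equal spread in all arrays. That check does not cover an array that stands apart, such as control replicate 5, or correlated arrays. Members and lists were chosen with earlier results of these data known. Every member could be named, and the plan allowed at most 4 genes of smallest p from each other list. List genes named beyond that are marked as chosen or named after their values were seen. Alternatives were quantile normalization, median centring, robust eBayes, array weights, a replicate block, a minimum fold of 1.2, a threshold of 0.01, gene-level means, probe sets with 1 symbol only, an exact permutation test and leaving out each array. Because ratios hold no level, the planned filter on dim probes was left out. Promoter sequences are RefSeq's (GRCr8). Figures were drawn with matplotlib 3.10.9.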

Additional observations from a re-analysis of the deposited data

Results flagged for a closer look

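Of 124 groups of 6 arrays (2 for each member and for 3 class means), 21 held an array far from its group, judged by its gap to the nearest array over the group's range (Dixon's 95% critical value). Chance gives such a gap in about 1 group in 20, or 6.2 of 124. In 15 of the 21 the array was control replicate 5.

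Control replicate 5 was the lowest control for Kif1b (−0.93), Kif2a (−0.92), Dctn4 (−0.65), Kif16b (−0.52), Kif1c (−0.49), Dync2h1 (−0.43), Klc2 (−0.34), Dctn6 (−0.32) and Kif13b (−0.31). It was also the lowest for Dync1i2 (−0.29), Dync1li1 (−0.29), Kif13a (−0.22), Kif3c (−0.22) and the mean of dynein and dynactin (−0.14), and the highest for Kifc2 (0.42). These are transport kinesins, dynein chains and dynactin subunits, with Kif2a and Klc2. None is on the list of mitotic kinesins used here, which leaves out Kif2a although it also acts at spindle poles.

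The 6 other arrays were DEHP replicate 6 for Kif26b (0.56) and Kif16b (0.54), both high, DEHP replicate 3 for Dync1h1 (−0.017, low), control replicate 6 for Dynll1 (0.23, high), control replicate 1 for Kif15 (0.15, high) and control replicate 1 for Dynlt5 (−0.095, low).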

How the results depend on the processing

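No member that passed changed direction under any alternative, and none of their log2 folds moved by more than 1.40 times (Dctn4). Signs turned for 16 members that did not pass, whose log2 folds were at most 0.18. The limits are the 6 arrays per group from 1 litter and values that hold no level. With adjusted p under 0.01, 6 members were higher, 1 transport kinesin was lower and 2 genes of dynein and dynactin were higher. Against a minimum fold of 1.2, 1 member was higher (Kif16b, the 1 transport kinesin higher) and 4 were lower, all 4 mitotic kinesins, with 0 transport kinesins lower and 0 dynein or dynactin genes called either way. Transport kinesins lower were 4 under quantile normalization, the replicate block, probe sets with 1 symbol, gene means, and without control replicate 5 and DEHP replicate 6 together, and 5 under array weights. All members lower were 17 under quantile normalization, with Kif5b, Kif3c, Kifc1 and Dctn6 added, and 18 under array weights, with Kif13a added too. Single-symbol probe sets and gene means added Kif5b, Kif3c and Kifc1, and median centring Kifc1. Leaving out each array gave 1 to 4 transport kinesins lower and 3 to 5 for dynein and dynactin lower, which was also 5 without control replicate 5 and DEHP replicate 6. With single arrays left out, 8 to 10 members were higher, 12 to 17 lower and 8 to 9 mitotic kinesins lower. Replicate numbers were not treated as pairs. Deviations of same-numbered arrays correlated above 0.1 for 5 of 6 numbers, from 0.13 to 0.77 (replicate 5). For replicate 6 the correlation was 0.07, and the labels do not say that a number marks a shared source. As a hint from the data, 5 of 12 arrays correlated best with their own number. With the replicate block 25 members passed (9 higher, 16 lower), without Dynll2 and with Kif5b, Kifc1 and Kif3c added. All 10 pairs of relatives called kept an unadjusted exact p under 0.05 with each array left out in turn and under quantile normalization, alternatives chosen after the data were seen.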
